A study of Homo sapiens with 16 samples.

Results

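The genes described here are 31 genes of DNA repair and damage signalling, taken from a list of names. They were 31 of the 13088 genes in which at least 1 base was called in any library. Their m6A-eCLIP signal was compared in U87 MG cells, an established human glioma cell line (U87, 3 libraries), in a temozolomide-resistant derivative kept in medium with 50 µM temozolomide (U87-R, 3 libraries), and in U87-R exposed to 50 µM STM2457 for 96 hours (2 libraries). U87 and U87-R without STM2457 carried a DMSO control label and are called untreated here, which means without STM2457. U87-R was labelled with 50 µM temozolomide both with and without STM2457, and U87 with none. Resistance and the temozolomide in the medium therefore cannot be told apart. The labels do not say whether U87-R is 1 clone, nor whether replicates were grown as separate cultures. P-values therefore reflect only how these libraries vary, part of which may be technical. In m6A-eCLIP, polyA RNA is fragmented and bound by an antibody against N6-methyladenosine (m6A), and crosslinks mark the bound base. The 8 matching input libraries were not analysed here, so more methylation of a transcript and more of that transcript cannot be told apart.

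Repair genes matter in glioma because temozolomide kills by methylating DNA bases. The enzyme MGMT removes the most toxic of these lesions directly, mismatch repair recognises those that remain, base excision repair handles the other methylated bases, and breaks that follow are sensed by the checkpoint kinases and mended by end joining, homologous recombination and the Fanconi anaemia pathway. m6A is placed on messenger RNA mainly by the METTL3 complex, which STM2457 inhibits. Antibodies against m6A also bind the related m6Am, which can be the first transcribed base after the cap and is made by another enzyme, and the 2 were not told apart here.

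Each value below is built from the authors' score of a called base, which has no stated unit and a ceiling of 708 in these files. A gene's sum is the total score of all bases called in it on its strand, a base that is not listed adds 0, and sums are not divided by length, so levels are compared within a gene. A gene was tested when its sum reached 10 in at least 2 libraries. Differences are in log2(sum + 1) and come from 1 limma fit of the 3 groups, with p-values adjusted over all genes (Benjamini-Hochberg) and a call at an adjusted p under 0.05. Libraries held 105900 to 192697 called bases, and the 2 treated libraries, with 105900 and 110875, held the fewest. Depth is unknown. Of the glioma markers looked up, VIM, CD44, NES, TNC, EGFR and OLIG2 had a sum above 0 in all 8 libraries, SOX2 was listed at 0, and GFAP had no assigned strand and so no value. Of the markers of other cell types, PTPRC, KRT5 and ALB were at 0 in every library, PECAM1 summed to 2.77 to 49.1, and EPCAM and COL3A1 had no assigned strand.

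Across the 31 genes, 897 bases were called in at least 1 library. U87 libraries had 278, 335 and 323 of these bases, untreated U87-R had 382, 305 and 316, and STM2457-treated U87-R had 187 and 200. The treated libraries thus had fewer called bases than every untreated library. Of the 31 genes, 30 passed the filter and MRE11, a nuclease that senses breaks, did not. Few differences between resistant and parental cells passed the threshold, which does not show that the cells are alike. FANCD2, the central protein of the Fanconi anaemia pathway, rose in untreated U87-R against U87 and no gene fell, where 0.893% of all 10521 tested genes rose and 0.371% fell. FANCD2 was listed at 0 in U87 and passed the filter through U87-R libraries alone, so only a rise could be called for it. Of the 30, 5 had an unadjusted p under 0.05, as did 1316 of all 10521, and the median difference was 0.38 against 0.12 over all tested genes. With STM2457, 9 of the 30 fell (ALKBH2, APEX1, BRCA1, H2AX, LIG3, MSH6, PRKDC, TP53BP1 and XRCC1) and 2 rose (CHEK2 and PARP1), where 37.8% of all tested genes fell and 6.29% rose. These shares, 30% and 6.67%, are near those of all genes. CHEK2 reached the filter only in libraries outside untreated U87-R, so the filter favoured its rise. The median difference was -0.43 against -0.68 over all tested genes.

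The split of calls depended on how the libraries were scaled. With each library centred on its median, or scaled to the same total, the median over all genes moved from -0.68 to -0.12 and -0.10, and the share of all called genes that rose went from 14.3% to 38.8% and 40.6%. Among the 31, the calls became 6 higher and 4 lower when centred (ALKBH3, CHEK1, CHEK2, PARP1, POLB and RAD50 against ALKBH2, BRCA1, LIG3 and TP53BP1), and 6 higher and 3 lower when scaled, LIG3 dropping out. In untreated U87-R against U87, centring took the share of called genes that rose from 70.7% to 59.4%. Differences relative to the median of all tested genes are therefore given beside the fitted ones. Without STM2457 replicate 2, the calls among the 31 dropped from 11 to 6, all lower.

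**Figure D1:**
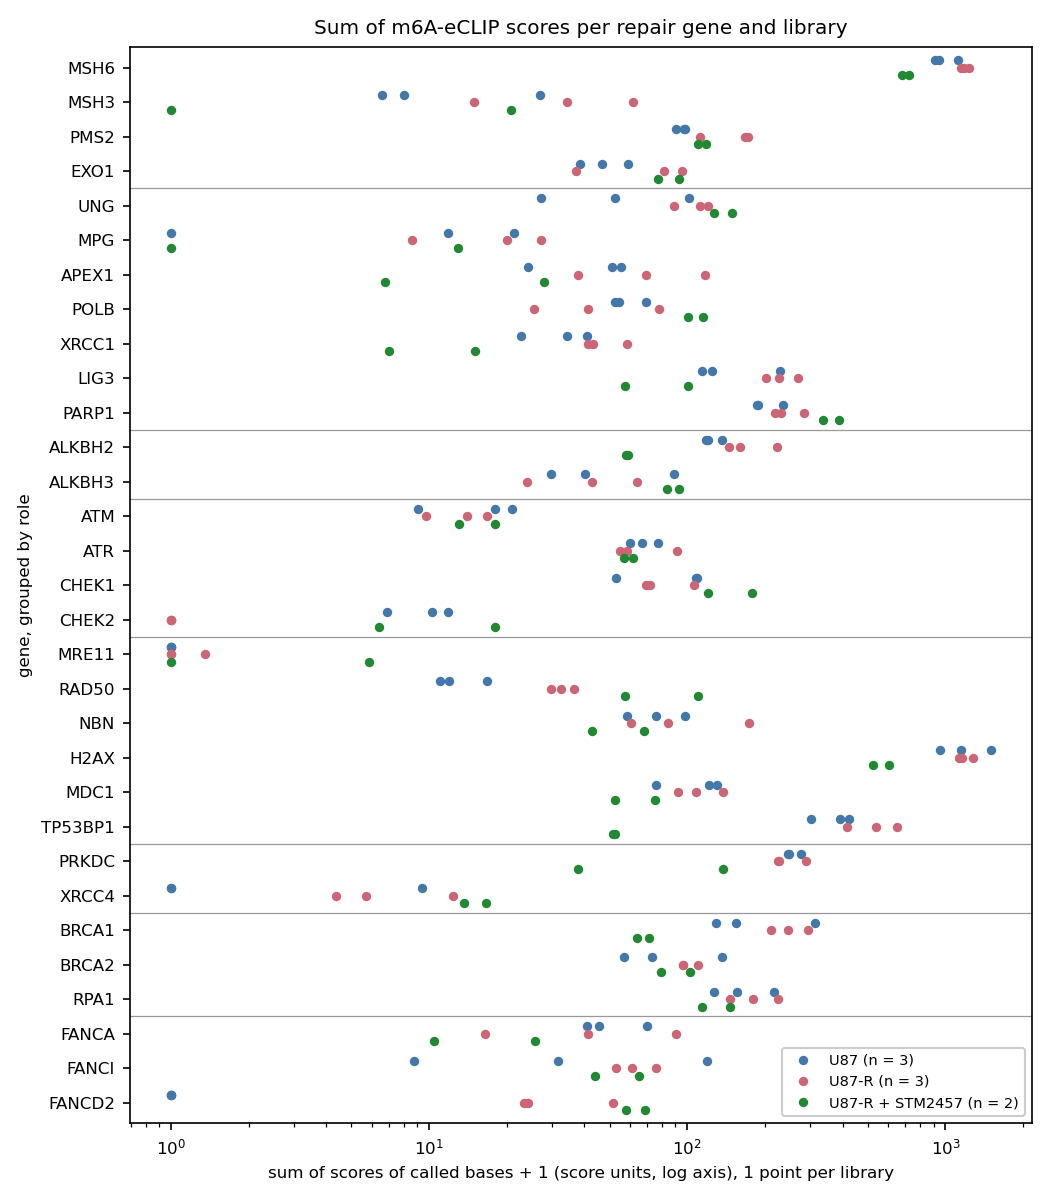
Sum of the scores of all called bases plus 1 (score units, log axis) for each of the 31 genes, grouped by role, with 1 point per library for U87 (n = 3), untreated U87-R (n = 3) and STM2457-treated U87-R (n = 2). Sums are not divided by length, so points are compared within a gene, where TP53BP1 shows both treated libraries far below all others, and FANCD2 is at 0 in all U87 libraries.

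Signal at gene starts took a larger share with STM2457, and signal inside genes a smaller one. Bases were divided into those within 50 nt of an annotated 5′ end (start bases) and those farther away (internal bases). Over the 31 genes, start bases carried 9.89%, 11.8% and 11.0% of the total score in U87, 10.2%, 14.8% and 10.2% in untreated U87-R, and 36.1% and 36.4% with STM2457. Over all genes, the same share was 8.72% to 11.9% in the 6 untreated libraries and 30.5% and 29.3% in the treated ones. Both treated libraries stood above every untreated one on either scope. On internal bases, 23 of the 31 genes were tested, and 15 fell with STM2457 and none rose, where 54.6% of 9739 genes fell and 4.8% rose. The median of the 23 was -1.56 against -1.26 over all genes tested on these bases. On start bases, 18 were tested, and NBN rose and XRCC1 fell, where 22.5% of 5185 genes rose and 0.868% fell. NBN reached the filter there in the treated libraries alone, so its rise was set by the filter. The median of the 18 was 1.34 against 1.06 over all genes tested on these bases.

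Centring each library on its own median left 6 internal calls, with CHEK1, EXO1 and RAD50 higher and ATR, RPA1 and TP53BP1 lower, and scaling to the same total left 2 higher and 8 lower. Over all genes these scalings took the share of internal calls that were higher from 8.08% to 48.6% and 18.9%. On start bases, centring left XRCC1 as the only call and scaling gave 8 higher, and the share over all genes went from 96.3% to 66.1% when centred. In untreated U87-R against U87, no internal sum was called among the 23 by limma, where 0.78% of genes rose and 0.411% fell, and 2 of the 23 had an unadjusted p under 0.05, as did 1073 of all 9739. On start bases FANCD2 rose, a call that a replicate block ended, where 0.752% of genes rose and 0.251% fell. There too its U87 libraries were at 0, so only a rise could be called. Centring took the share of start calls that were higher in that comparison from 75.0% to 20.0% over all genes.

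**Figure D2:**
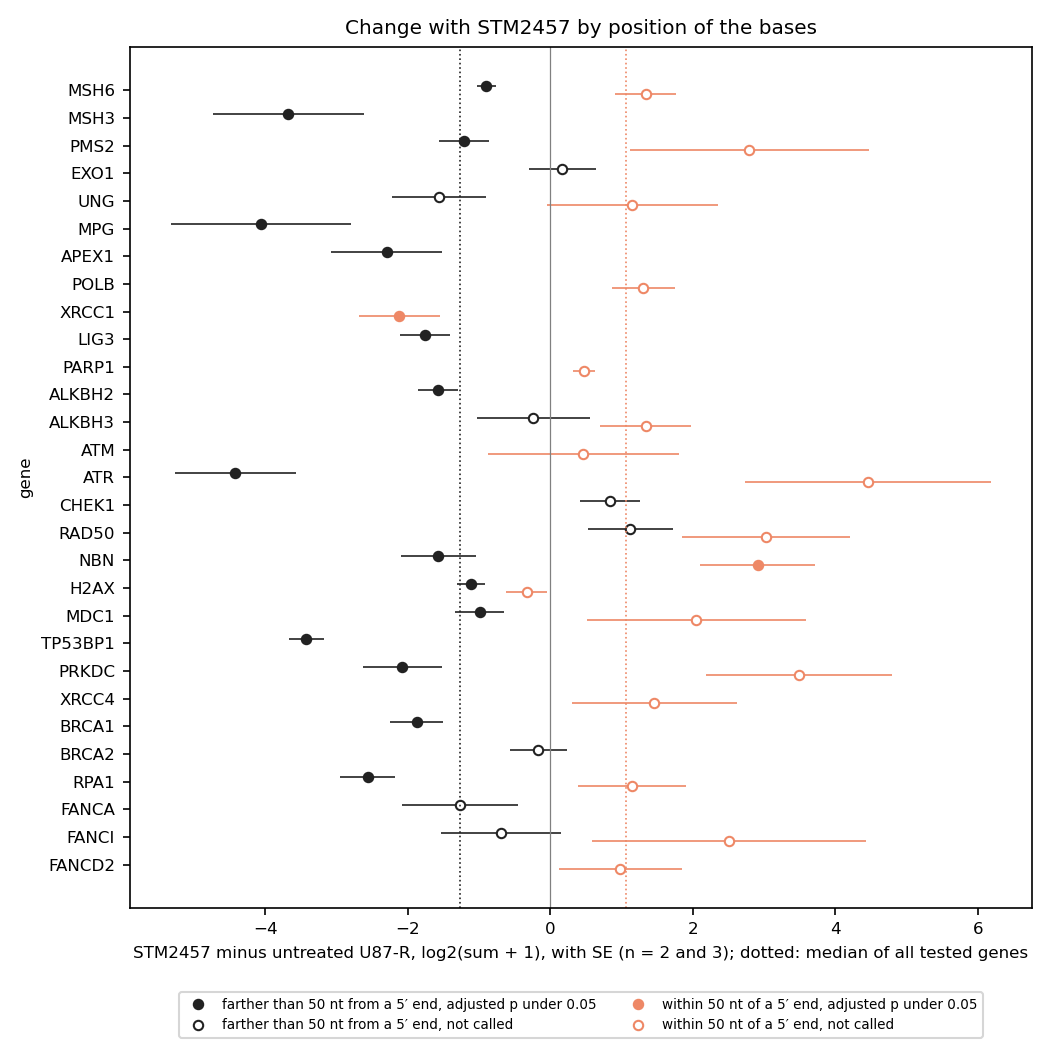
Difference between STM2457-treated (n = 2) and untreated (n = 3) U87-R in log2(sum + 1) for each gene tested, with the SE, for internal bases (black) and start bases (orange), filled where the adjusted p is under 0.05. Dotted lines give the medians of all tested genes, -1.26 for internal and 1.06 for start bases, and the 15 filled internal sums lie left of 0 while NBN and XRCC1 are the filled start sums.

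Stretches of 30 bases that hold called bases are shown for FANCD2, PARP1, XRCC1, UNG, ALKBH3 and CHEK2, where these lie at or near a start, and for CHEK1, whose stretch lies upstream of the nearest annotated start and was counted as internal. POLB, ATM and XRCC4, also read mainly at the start, are not shown. They are RefSeq sequence of GRCh38.p14, 5′ to 3′ on the gene's strand, with capitals for the bases that 2 or more libraries of the same group called. FANCD2 is shown from chr3:10026437-10026466, PARP1 from chr1:226408064-226408093, XRCC1 from chr19:43575498-43575527, UNG from chr12:109097597-109097626, ALKBH3 from chr11:43880831-43880860, CHEK2 from chr22:28741801-28741830 and CHEK1 from chr11:125625974-125626003.
FANCD2: ggGAaagtcgaaaactacgggcggcgacgg
PARP1: agCAATcTAtCAgggaacggcggtggccgg
XRCC1: ActctccctgcccctcggacccCAtactct
UNG: AATtgctgaccgccacagccacagccaggg
ALKBH3: ActctTAAggttccgatCAcagactgcgga
CHEK2: gtttagcgcCactctgctggctgaggctgc
CHEK1: gCATTTggattcctgcagtggtgggcaaag
The capitals cluster at the first bases of the FANCD2, PARP1 and UNG stretches, and XRCC1 and ALKBH3 also have a called pair of letters, CA, farther in. The CHEK1 stretch does not begin at an annotated start, so the place of its capitals within it is not read. Over the start bases of the 31 genes that the RefSeq table covers, 53.9% of 102 called bases were an A, against 47.6% of 30537 over all genes, while A made up 20.0% of all letters around the starts in that table.

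Mismatch repair corrects mispaired bases, including those left by temozolomide. MSH6, which recognises mispairs (chr2:47783145-47810101, plus strand, NCBI gene 2956), summed to 939.8, 1118 and 911 in U87, 1227, 1150.4 and 1176 in untreated U87-R, and 678 and 724 with STM2457. All treated values lay below all untreated ones, and the U87-R values lay just above those of U87. MSH6 fell with STM2457 by 0.76 ± 0.13 (SE) on the log2 scale (adjusted p = 0.00183), which is -0.08 relative to the median of all genes. Internal bases of MSH6 fell by 0.90 ± 0.13 (SE) (adjusted p = 0.000474), a direction that turned to 0.33 when each library was centred on its median. Its start bases summed to 40.3, 37.9 and 21.4 in untreated U87-R and 84.9 and 79.8 with STM2457 (adjusted p = 0.0637).

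PMS2, the endonuclease subunit that cuts the mismatched strand, has near-identical copies in the genome, so its values are uncertain. Its whole sum was 89.8, 96.6 and 97.4 in U87, 167, 111 and 172 in untreated U87-R, and 117 and 109.5 with STM2457, and it was not called. Its internal bases fell (-1.21 ± 0.35 (SE), adjusted p = 0.0166), from 167, 85.6 and 149 in untreated U87-R to 57.6 and 52.5, though the difference became 0.01 when centred. Start bases of PMS2 summed to 0, 5.06 and 0 in U87, 0, 25.9 and 22.3 in untreated U87-R, and 59.7 and 57.0 with STM2457, highest in the treated libraries. MSH3, which recognises small loops, was low. Its internal sums were 5.59, 25.8 and 7.02 in U87, 60.5, 14.0 and 33.3 in untreated U87-R, and 0 and 5.09 with STM2457. These fell with STM2457 (-3.68 ± 1.06 (SE), adjusted p = 0.0158). MSH3 reached the filter there in no treated library, so the filter favoured its fall. The internal call of PMS2 was lost when single libraries were left out (adjusted p = 0.0589, 0.0507 and 0.0699 without U87-R replicate 3, STM2457 replicate 1 and STM2457 replicate 2, in that order), as was that of MSH3 (adjusted p = 0.0501 and 0.123 without U87-R replicate 1 and STM2457 replicate 1, in that order). EXO1, the exonuclease that removes the mismatched strand, summed to 37.6, 45.8 and 58.0 in U87, 80.4, 94.4 and 36.1 in untreated U87-R, and 75.8 and 91.8 with STM2457, with overlapping groups and no call.

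Base excision repair was split between genes read mainly at the start and genes read mainly inside. PARP1, which senses single-strand breaks and marks them with poly(ADP-ribose) (chr1:226360691-226408093, minus strand, NCBI gene 142), was of the first kind, with all of its signal within 50 nt of the start in every untreated library. It summed to 185, 233 and 187 in U87, 230.1, 283 and 218 in untreated U87-R, and 335 and 386 with STM2457. Both treated values lay above all untreated ones. PARP1 rose with STM2457 by 0.57 ± 0.20 (SE) (adjusted p = 0.0483), 1.25 relative to the median of all genes. The call held in 7 of 19 alternatives and was lost without most single libraries (adjusted p = 0.0538, 0.064, 0.0976, 0.137, 0.139 and 0.292 without U87 replicate 1, U87 replicate 3, U87-R replicate 1, U87-R replicate 3, STM2457 replicate 1 and STM2457 replicate 2, in that order), and counting bases instead of summing scores gave -0.10.

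POLB, the polymerase that fills the gap, was read only at the start in the untreated libraries and summed to 51.6, 53.4 and 68.1 in U87, 24.6, 76.7 and 40.1 in untreated U87-R, and 114 and 99.2 with STM2457 (adjusted p = 0.0696). Its treated values also lay above all others without reaching the threshold. UNG, which removes uracil from DNA, had start sums of 9.32, 0 and 19.3 in U87, 70.3, 53.8 and 38.8 in untreated U87-R, and 101 and 138 with STM2457. The 3 groups did not overlap there, yet neither difference passed (adjusted p = 0.289 for untreated U87-R against U87, and adjusted p = 0.483 for STM2457). Internal UNG bases were lower in the treated libraries, with 49.1, 34.4 and 72.6 in untreated U87-R and 24.9 and 10.4 with STM2457 (adjusted p = 0.0688).

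XRCC1, the scaffold that gathers single-strand break repair enzymes, had most of its signal at the start but fell. It summed to 21.7, 33.2 and 40.0 in U87, 42.1, 57.2 and 40.3 in untreated U87-R, and 14.1 and 5.97 with STM2457. The difference with STM2457 was -2.19 ± 0.62 (SE) (adjusted p = 0.0193), -1.52 relative to the median of all genes, and the start bases alone gave -2.12 ± 0.57 (SE) (adjusted p = 0.037). Its untreated U87-R values lay above all of U87 by a small margin, with no call (adjusted p = 0.748). The whole-gene call was lost without 1 treated library (adjusted p = 0.125 without STM2457 replicate 2), and the start call without each of 6 single libraries (adjusted p = 0.054, 0.0661, 0.0883, 0.0838, 0.258 and 0.321 without U87 replicate 3, U87-R replicate 1, U87-R replicate 2, U87-R replicate 3, STM2457 replicate 1 and STM2457 replicate 2, in that order).

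**Figure D3:**
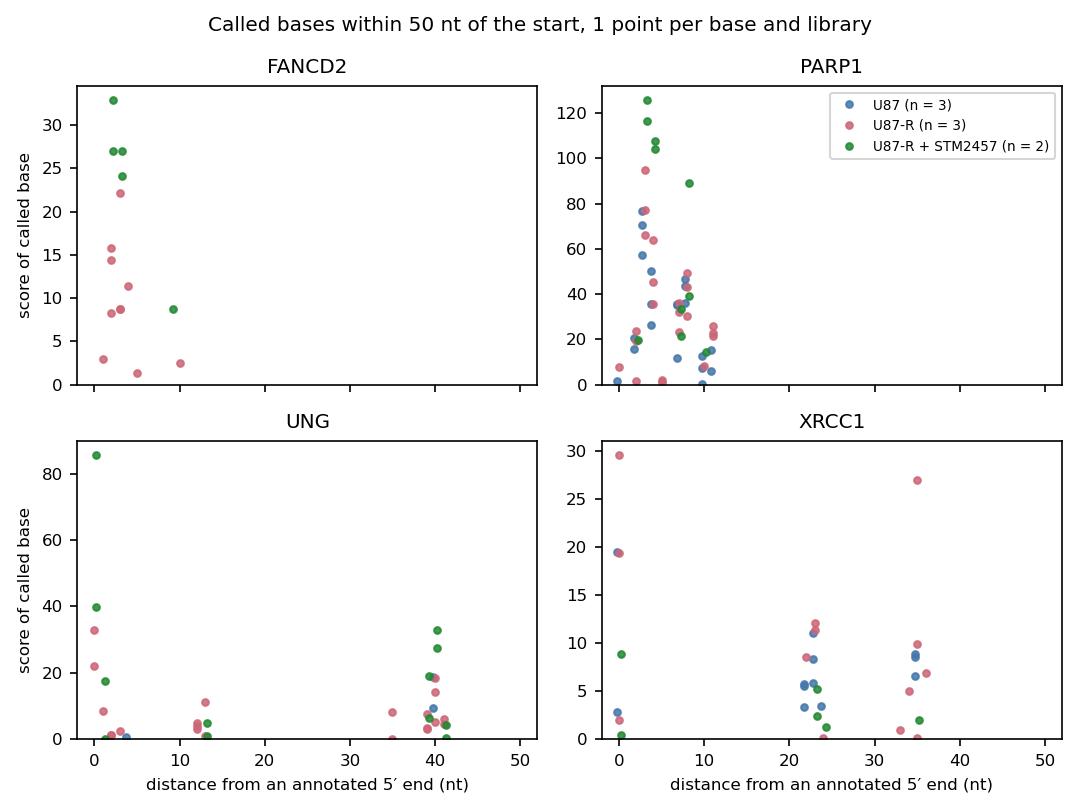
Score of each base called within 50 nt of an annotated 5′ end of FANCD2, PARP1, UNG and XRCC1 (vertical axis, score units) against its distance from that end in nt, with 1 point per base and library. FANCD2 has points from untreated and treated U87-R and none from U87, the highest PARP1 points are from treated libraries, and no XRCC1 point of a treated library exceeds 8.82.

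The rest of the base excision genes were read inside. LIG3, the ligase that seals the nick, summed to 124, 227 and 113 in U87, 268, 225 and 201 in untreated U87-R, and 100.1 and 56.5 with STM2457. It fell with STM2457 by 1.60 ± 0.37 (SE) on the log2 scale (adjusted p = 0.00841), -0.92 relative to the median of all genes. APEX1, the endonuclease that cuts at abasic sites, summed to 50.0, 23.2 and 54.4 in U87, 116, 36.6 and 68.4 in untreated U87-R, and 26.8 and 5.78 with STM2457. Its fall (-2.29 ± 0.79 (SE), adjusted p = 0.0429) lay just inside the threshold, and the untreated libraries overlapped widely. MPG, the glycosylase that removes the methylated purines temozolomide makes, had internal sums of 10.9, 0 and 20.3 in U87, 26.1, 7.58 and 19.0 in untreated U87-R, and 0 and 0 with STM2457. It was listed at 0 in both treated libraries there, and the internal sum fell (adjusted p = 0.0222). With both treated libraries at 0, only a fall could be called for MPG. The LIG3 call was lost without 1 library (adjusted p = 0.0659 without STM2457 replicate 2). The APEX1 call was lost on all bases (adjusted p = 0.0597, 0.0578, 0.124, 0.0953 and 0.262 without U87 replicate 1, U87 replicate 3, U87-R replicate 1, U87-R replicate 3 and STM2457 replicate 2, in that order) and on internal bases (adjusted p = 0.0948, 0.0708 and 0.194 without U87-R replicate 1, U87-R replicate 3 and STM2457 replicate 2, in that order), where the difference was -2.29 ± 0.78 (SE) (adjusted p = 0.0309). Its size on all bases was -1.28 without STM2457 replicate 2. For MPG the call was lost likewise (adjusted p = 0.0623, 0.0539, 0.0882 and 0.0829 without U87-R replicate 1, U87-R replicate 3, STM2457 replicate 1 and STM2457 replicate 2, in that order).

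The AlkB enzymes reverse alkylation directly. ALKBH2, which acts on double-stranded DNA, summed to 135, 117 and 119 in U87, 159.6, 144 and 222 in untreated U87-R, and 56.9 and 57.8 with STM2457. The groups did not overlap, and all of its signal was internal. It fell with STM2457 by 1.57 ± 0.29 (SE) on the log2 scale (adjusted p = 0.00244), -0.89 relative to the median of all genes. Its rank above U87 in untreated U87-R was not called (adjusted p = 0.5). ALKBH3, which prefers single strands, summed to 28.5, 87.7 and 39.1 in U87, 62.8, 22.9 and 41.6 in untreated U87-R, and 92.3 and 82.1 with STM2457, was not called (adjusted p = 0.17), and had more than 90% of its signal at the start with STM2457 (91.8% and 93.9%).

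The damage signalling kinases ATM, ATR, CHEK1 and CHEK2 relay breaks and stalled forks to the cell cycle. ATR, which answers stalled replication forks, summed to 65.6, 59.2 and 75.9 in U87, 90.7, 53.7 and 57.5 in untreated U87-R, and 60.5 and 55.8 with STM2457 over all its bases, and these overlapped. Split by position, its internal bases summed to 65.6, 59.2 and 59.2 in U87, 90.7, 53.7 and 42.3 in untreated U87-R, and 0 and 6.88 with STM2457. The internal bases fell (-4.42 ± 0.85 (SE), adjusted p = 0.00225), and the difference was -2.93 without STM2457 replicate 1. Start bases of ATR summed to 0, 0 and 16.7 in U87, 0, 0 and 15.2 in untreated U87-R, and 60.5 and 48.9 with STM2457 (adjusted p = 0.106). The treated start sums were the highest of the 8, with no call here, though ATR was called higher when libraries were scaled to the same total.

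CHEK1, the kinase downstream of ATR, summed to 107, 108 and 51.9 in U87, 68.2, 105 and 70.8 in untreated U87-R, and 119 and 177 with STM2457, highest in the treated libraries but not called (adjusted p = 0.135). Nearly all of this came from the 5 neighbouring bases in capitals in the sequence above, which lie 245 to 249 nt upstream of the nearest annotated start and were therefore counted as internal. CHEK2, the kinase downstream of ATM, was listed at 0 in all 3 untreated U87-R libraries and summed to 5.85, 9.3 and 10.9 in U87 and 5.4 and 17.1 with STM2457. It rose with STM2457 (adjusted p = 0.00567), and its lower values in untreated U87-R against U87 missed the threshold (adjusted p = 0.0624). Untreated U87-R was at 0 and did not help CHEK2 pass the filter. Only these directions could thus be called, and both differences are given as a description. CHEK2 has near-identical copies elsewhere in the genome, its signal rests on 7 weak bases, it passed the filter through 1 library each of U87 and treated U87-R, and the call was lost without another (adjusted p = 0.088 without STM2457 replicate 1). ATM, which answers double-strand breaks, was low, with 8.07, 20.0 and 17.0 in U87, 13.0, 15.8 and 8.72 in untreated U87-R, and 12.0 and 17.1 with STM2457 and overlapping groups.

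Break sensing and chromatin mediators held the largest fall among the 9 genes called lower over all bases. TP53BP1, which binds damaged chromatin and favours end joining (chr15:43403061-43510640, minus strand, NCBI gene 7158), summed to 389, 301 and 423 in U87, 646, 416 and 538 in untreated U87-R, and 51.5 and 50.6 with STM2457. Both treated values lay far below every untreated value, and the untreated groups overlapped. TP53BP1 fell by 3.34 ± 0.24 (SE) on the log2 scale (adjusted p = 5.46e-05), -2.66 relative to the median of all genes, and the call held in all 19 alternatives, with adjusted p from 2.35e-05 to 0.00148. Of its 10 internal bases that scored 10 or more in every untreated U87-R library, 8 were not called in either treated library and none scored that high in both.

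H2AX, the histone variant phosphorylated around breaks (chr11:119093874-119095465, minus strand, NCBI gene 3014), summed to 951, 1499 and 1150.3 in U87, 1127, 1278 and 1155 in untreated U87-R, and 601 and 525 with STM2457. It fell with STM2457 by 1.08 ± 0.19 (SE) on the log2 scale (adjusted p = 0.00202), -0.40 relative to the median of all genes. All 57 of its bases also lie in the RefSeq span of DPAGT1 on the same strand, so they cannot be assigned to H2AX alone. Internal bases of H2AX fell by 1.12 ± 0.20 (SE) (adjusted p = 0.00136), which turned to 0.11 when each library was centred. Of 16 such strong internal bases, 7 were absent from both treated libraries and 7 were kept in both.

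The MRE11 complex, with RAD50 and NBN, holds broken ends. RAD50 summed to 10.9, 10.0 and 15.8 in U87, 31.5, 35.5 and 28.8 in untreated U87-R, and 56.2 and 109 with STM2457. The 3 groups did not overlap, in the order U87, untreated and treated U87-R, but neither difference was called (adjusted p = 0.333 and adjusted p = 0.103). NBN had internal sums of 57.2, 74.6 and 96.6 in U87, 173, 54.9 and 78.2 in untreated U87-R, and 25.6 and 35.0 with STM2457 and start sums of 0.217, 0 and 0 in U87, 0, 4.52 and 4.69 in untreated U87-R, and 16.1 and 31.9 with STM2457. The internal bases fell (-1.57 ± 0.53 (SE), adjusted p = 0.031) and the start bases rose (2.91 ± 0.81 (SE), adjusted p = 0.0415). The start bases passed the filter through the treated libraries alone and so had to be higher there. Their rise is thus not read as a result about NBN. Both NBN calls were lost when single libraries were left out, on internal bases (adjusted p = 0.0793, 0.0545 and 0.118 without U87-R replicate 1, U87-R replicate 3 and STM2457 replicate 1, in that order) and on start bases (adjusted p = 0.0598, 0.06 and 0.0665 without U87 replicate 1, U87 replicate 2 and U87 replicate 3, in that order). MRE11 was listed at 0 in 6 of 8 libraries, including all of U87, with 0.359 in U87-R replicate 3 and 4.83 in STM2457 replicate 1. MDC1, which reads the mark on H2AX, had internal sums of 74.4, 121 and 113 in U87, 137, 91.1 and 107 in untreated U87-R, and 51.7 and 58.1 with STM2457. These fell (-0.99 ± 0.35 (SE), adjusted p = 0.0352), but the difference was 0.24 when centred, and it was lost without single libraries (adjusted p = 0.0501, 0.0909, 0.0759, 0.141 and 0.0838 without U87 replicate 3, U87-R replicate 1, U87-R replicate 3, STM2457 replicate 1 and STM2457 replicate 2, in that order).

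End joining was represented by PRKDC, the catalytic subunit of DNA-dependent protein kinase, and XRCC4, the partner of ligase IV. PRKDC summed to 248, 275 and 245 in U87, 223, 225 and 287 in untreated U87-R, and 137 and 36.6 with STM2457. The 2 treated libraries differed widely from each other, and both lay below all untreated ones. PRKDC fell with STM2457 (-1.76 ± 0.46 (SE), adjusted p = 0.0139), -1.09 relative to the median of all genes. Its difference was -2.70 without STM2457 replicate 1 and -0.82 without STM2457 replicate 2, where the call was lost (adjusted p = 0.0657 without STM2457 replicate 2), and counting bases gave 0.09. On internal bases it fell by 2.07 ± 0.55 (SE) (adjusted p = 0.0111), with -3.22 and -0.92 when each treated library was left out in turn. XRCC4 was low, with 0, 0 and 8.37 in U87, 11.4, 4.72 and 3.35 in untreated U87-R, and 15.7 and 12.7 with STM2457.

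Homologous recombination copies the sister chromatid. BRCA1, which promotes end resection, summed to 128, 312 and 154 in U87, 293, 244 and 209.7 in untreated U87-R, and 70.0 and 63.0 with STM2457. It fell with STM2457 by 1.88 ± 0.37 (SE) on the log2 scale (adjusted p = 0.00384), -1.20 relative to the median of all genes, and was called in all 19 alternatives. BRCA2, which acts after resection, summed to 56.1, 135 and 72.3 in U87, 95.5, 109 and 95.5 in untreated U87-R, and 78.0 and 101 with STM2457, with overlapping groups and no call (adjusted p = 0.769). RPA1, which coats single-stranded DNA, summed to 126, 155 and 216 in U87, 145, 224 and 179 in untreated U87-R, and 113 and 145 with STM2457 and was not called either. Its internal bases summed to 118, 104 and 187 in U87, 106, 146 and 146 in untreated U87-R, and 26.8 and 17.0 with STM2457 and fell (-2.56 ± 0.39 (SE), adjusted p = 0.000648). Its start bases summed to 8.08, 51.3 and 29.4 in U87, 39.7, 78.0 and 33.0 in untreated U87-R, and 85.7 and 128 with STM2457, highest in the treated libraries (adjusted p = 0.288).

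The Fanconi anaemia pathway unhooks interstrand crosslinks. FANCD2, which is clamped onto damaged DNA together with FANCI (chr3:10026437-10101932, plus strand, NCBI gene 2177), was listed at 0 in all 3 U87 libraries and summed to 22.4, 50.7 and 23.2 in untreated U87-R and 57.1 and 67.6 with STM2457. It rose in untreated U87-R against U87 (adjusted p = 0.00641), having passed the filter through untreated and treated U87-R alone. With U87 at 0, only a rise could be called, so this call is given as a description. Its higher treated values were not called against untreated U87-R (adjusted p = 0.256). All of its untreated signal lay at the start, mainly at 2 bases. The base 2 nt from the 5′ end scored 0, 0 and 0 in U87, 8.22, 15.8 and 14.4 in untreated U87-R, and 32.9 and 27.0 with STM2457, and that 3 nt from it scored 0, 0 and 0 in U87, 8.71, 22.1 and 8.75 in untreated U87-R, and 24.1 and 27.0 with STM2457. These are the capital G and A of the sequence above. FANCD2 was the only gene of the list that passed the threshold in untreated U87-R against U87, and MRE11, also at 0 throughout U87, was not tested.

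The FANCD2 call, with the limit just given, was kept in 15 of 19 alternatives. It was lost with bases of at least 10 only (adjusted p = 0.383), with base counts (0.0759), with the 2 groups fitted alone (0.101) and without a treated library (adjusted p = 0.0506 without STM2457 replicate 2). On start bases alone the adjusted p was 0.0422, or 0.221 with a replicate block, and the call was lost without 6 single libraries (adjusted p = 0.0785, 0.0758, 0.0598, 0.0655, 0.236 and 0.24 without U87 replicate 1, U87 replicate 3, U87-R replicate 1, U87-R replicate 3, STM2457 replicate 1 and STM2457 replicate 2, in that order). Near-identical partial copies of FANCD2 exist in the genome, so its values are uncertain. FANCI summed to 7.75, 118 and 30.6 in U87, 51.8, 60.1 and 74.6 in untreated U87-R, and 64.2 and 43.0 with STM2457, and FANCA, a subunit of the core complex that marks FANCD2, to 39.9, 44.4 and 68.7 in U87, 89.6, 15.5 and 40.1 in untreated U87-R, and 24.8 and 9.42 with STM2457. Neither was called, and replicates of both spread widely.

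The share of a gene's signal at the start in U87 was set beside its difference with STM2457 for the 27 genes with a mean U87 sum of at least 10. Of the 5 with 50% or more at the start (ALKBH3, ATM, PARP1, POLB and XRCC1), 4 had a difference above 0, with a median of 0.57 and a range from -2.19 to 1.31, XRCC1 being the exception. Of the 22 with less, 4 had a difference above 0, with a median of -0.83 and a range from -3.34 to 1.28. Spearman's rho over the 27 was 0.40, given as a description because the genes share the same libraries and differ in sum. Among single bases that scored 10 or more in each untreated U87-R library, 9 of 10 start bases of the 31 genes kept such a score in both treated libraries and 26 of 71 internal bases did (36.6%). These bases were chosen by their U87-R scores, so the shares are a description. Over all genes these shares were 92.5% of 5252 and 38.3% of 37624. In turn, 28 of the 71 internal bases (39.4%) were not called in either treated library, against 31.4% over all genes.

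Single bases were tested in the same way over 188742 bases, of which 348 lay in the 31 genes. In untreated U87-R against U87, limma called none of the 348, where 0.00053% of all tested bases rose and 0% fell. Of the 348, 40 had an unadjusted p under 0.05. The number of calls among the 348 was unstable, since it became 4 without U87 replicate 1, 8 without U87 replicate 2, 4 without U87 replicate 3, 11 without U87-R replicate 2 and 4 without U87-R replicate 3. The matching shares over all bases are not given for these counts, so they are not read as a result about these genes. With STM2457, 69 fell in 18 genes and 22 rose in 13 genes, where 16.9% of all tested bases fell and 6.65% rose. The 22 include bases not called in any untreated library, which entered the test through the treated libraries alone and so had to rise. Likewise, the 69 include bases at 0 in both treated libraries, which entered the test through untreated libraries and could only fall. The share over all bases was counted in the same way. Start bases were 60 of the 348 tested, 8 of the 22 that rose and 3 of the 69 that fell. The 91 calls became 46 without STM2457 replicate 1 and 47 without STM2457 replicate 2. By gene, 12 of 37 tested bases fell in H2AX, 11 of 41 in MSH6, 10 of 37 in TP53BP1, 7 of 22 in BRCA1 and 6 of 12 in RPA1.

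Bases of a gene differed in their response. Bases listed at 0 in all 6 untreated libraries entered the test through the treated libraries alone and so had to differ, and they are given as values with no test. For bases at 0 in both treated libraries, here and below, only a fall could be called, and their adjusted p is read with that limit. In H2AX the base at chr11:119094135, 1330 nt from the 5′ end, scored 28.5, 115 and 54.1 in U87, 71.1, 78.2 and 104 in untreated U87-R, and 0 and 0 with STM2457. It was thus lost in both treated libraries (adjusted p = 0.000204). The base at chr11:119094193 scored 0, 0 and 0 in U87, 0, 0 and 0 in untreated U87-R, and 100.05 and 60.9 with STM2457, appearing only in the treated libraries of the 8. Another H2AX base, at chr11:119094188, scored 0, 55.8 and 50.7 in U87, 75.6, 92.9 and 19.3 in untreated U87-R, and 0 and 0 with STM2457 and also fell (adjusted p = 0.0498). The strongest H2AX base in untreated U87-R, at chr11:119094207, scored 158, 202 and 181 in U87, 165, 194 and 183 in untreated U87-R, and 206 and 183 with STM2457 and was not called (difference 0.10 ± 0.12 SE). In MSH6, 1 base held its score and another was lost. Its base at chr2:47800758 scored 116, 114 and 107 in U87, 107, 119 and 123 in untreated U87-R, and 103 and 124 with STM2457, while that at chr2:47801005 scored 58.2, 68.7 and 72.1 in U87, 77.6, 49.8 and 56.9 in untreated U87-R, and 0 and 0 with STM2457 (adjusted p = 3e-05).

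Of the strong bases of other genes given next, those of TP53BP1, PRKDC, BRCA1 and APEX1 were at or near 0 with STM2457, while those of LIG3 and ALKBH2 still had scores. The strongest TP53BP1 base in untreated U87-R, at chr15:43457085, scored 72.3, 52.6 and 45.2 in U87, 50.2, 55.0 and 51.97 in untreated U87-R, and 0 and 0 with STM2457 (adjusted p = 4.06e-05). The PRKDC base at chr8:47774256, 1145 nt from the gene's 3′ end, scored 73.1, 68.5 and 65.0 in U87, 62.6, 61.9 and 72.5 in untreated U87-R, and 0 and 0.694 with STM2457 (adjusted p = 3.32e-05). The strongest BRCA1 base, at chr17:43045783, scored 13.0, 37.0 and 36.2 in U87, 52.7, 54.2 and 28.9 in untreated U87-R, and 0 and 0 with STM2457 (adjusted p = 0.000544). All 3 were called in every untreated library. The strongest APEX1 base, at chr14:20457353, scored 4.16, 13.0 and 13.5 in U87, 42.0, 27.4 and 29.4 in untreated U87-R, and 0 and 0 with STM2457 (adjusted p = 0.00112). That of LIG3, at chr17:34983245, scored 27.3, 22.3 and 27.5 in U87, 71.0, 48.5 and 45.4 in untreated U87-R, and 12.4 and 37.8 with STM2457 and was not called, and that of ALKBH2, at chr12:109092782, fell from 85.04, 87.8 and 96.7 to 54.0 and 47.8 (adjusted p = 0.00725).

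Fewer bases rose than fell. Besides the H2AX base, the largest differences were in BRCA2, RAD50, MSH6 and UNG. The BRCA2 base at chr13:32333115 scored 0, 4.23 and 6.37 in U87, 2.26, 0 and 0 in untreated U87-R, and 29.0 and 49.6 with STM2457 (adjusted p = 0.0176). RAD50 had a base at chr5:132591973 that scored 0, 0 and 0 in U87, 0, 0 and 0 in untreated U87-R, and 19.7 and 24.9 with STM2457. Both were low or absent without STM2457. The MSH6 base at chr2:47799540 scored 0, 12.8 and 6.64 in U87, 0, 0 and 0 in untreated U87-R, and 20.7 and 22.8 with STM2457 (adjusted p = 0.0262). With untreated U87-R at 0, only a rise could be called for this MSH6 base. The UNG base at chr12:109097752, 155 nt from the 5′ end, scored 0, 0 and 0 in U87, 0, 0 and 0 in untreated U87-R, and 23.7 and 10.4 with STM2457. Exons and introns were not annotated here, so bases are placed by their distance from gene ends.

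**Figure D4:**
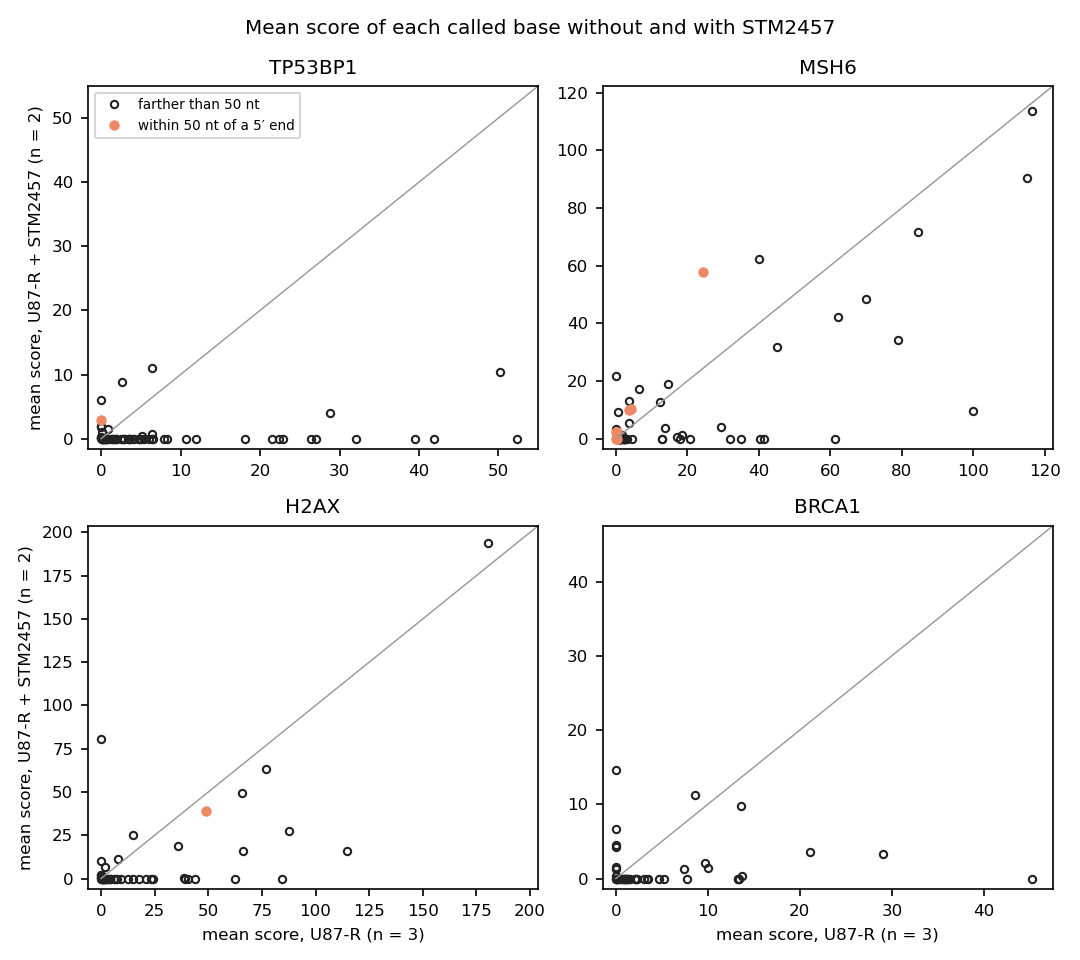
Mean score of each called base of TP53BP1, MSH6, H2AX and BRCA1 in untreated U87-R (n = 3, horizontal axis, score units) and in STM2457-treated U87-R (n = 2, vertical axis), with the line of equality and start bases in orange. Many TP53BP1 and BRCA1 bases lie on the horizontal axis, while the single strongest base of MSH6 and that of H2AX lie near the line and other strong bases of both lie far below it.

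The authors' deposited table of reproducible sites held 49 sites in 16 of the 31 genes for U87, 64 in 19 for untreated U87-R and 22 in 12 for STM2457. For peaks, the authors' deposited table held 150 in 20 genes, 172 in 23 and 85 in 26 for the same groups. The whole lists were shorter as well, with 33396, 35207 and 12791 sites and 95629, 96528 and 50034 peaks in U87, untreated U87-R and STM2457-treated U87-R in the authors' deposited table. The smaller number of entries under STM2457 is thus not read as a result about these genes. TP53BP1 had 9 sites in U87, 11 in untreated U87-R and 0 with STM2457 in the authors' deposited table, and 19, 23 and 1 peaks. FANCD2 had no site or peak for U87, 1 peak for untreated U87-R, and 2 peaks and 1 site with STM2457 in the authors' deposited table. PARP1 had 3, 4 and 3 sites in the authors' deposited table. Each of these lists joins the libraries of a group, so it has no replicate error.

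A further 122 repair genes were read in the same way, of which 101 were tested. In untreated U87-R against U87, MGMT rose and no gene fell (0.99% and 0%). MGMT was listed at 0 in all U87 libraries and summed to 157.6, 100.7 and 107.2 in untreated U87-R, and to 0.238 and 0.268 with STM2457. MGMT passed the filter through untreated U87-R alone and so had to differ in both comparisons, so no test is given for it. With STM2457, 36 of the 101 fell (35.6%) and 7 rose (6.93%), with a median of -0.78, shares close to the 37.8% and 6.29% of all genes. Among those that fell was FTO, a demethylase of the AlkB family that acts on RNA. FTO summed to 219, 106.7 and 167 in untreated U87-R and was listed at 0 in both treated libraries (adjusted p = 4.31e-05). With both treated libraries at 0, only a fall could be called for FTO. Among those that rose, PAXX, an end-joining factor, was listed at 0 in all untreated libraries and summed to 42.6 and 41.6 with STM2457. PAXX passed the filter through the treated libraries alone and so had to differ, so no test is given for it. LIG1, the replicative ligase, summed to 87.7 and 62.0 with STM2457 against 0.85, 0 and 0 in untreated U87-R and 0, 0 and 24.6 in U87 (adjusted p = 0.00775). LIG1 reached the filter in no untreated U87-R library, so the filter favoured its rise.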

How the data were processed

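The authors deposited, for each eCLIP library, a list of called bases, each with its position, strand and score. The score equals the lowest of 4 further scores in its row. Its formula was not given in the sources used here. UMI-tools, cutadapt and STAR were used with hg38, per the submitters' processing notes. For each group the authors deposited lists of sites and of peaks that recur, with the fraction of the group's libraries in which each passed. No file used holds read counts, so depth is unknown and no counting interval can be given.

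Scores were summed per gene and library within the RefSeq gene span (GRCh38.p14) on the gene's strand. A base in several genes was kept for the 31 genes and left out elsewhere. Of 452349 called bases, 393694 were given to a gene. Of 38386 genes, 27305 had a strand in the RefSeq table, 1791 took that of their called bases (at least 5, at least 80% on 1 strand) and 9290 had none. The 5′ ends were those of the gene span and of the RefSeq promoter table. Sums were compared as log2(sum + 1) with limma 3.58.1 (trend) in R 4.3.3, with all 3 groups in 1 fit and Benjamini-Hochberg adjustment over all genes, and the procedure was tested on simulated data. Peaks were overlapped with genes by at least 1 base with bedtools 2.31.1.

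U87 and U87-R libraries with the same replicate number deviated together (correlations 0.101, 0.316 and 0.108), while untreated and treated U87-R did not (-0.02 and -0.023). The first pairs may thus be paired, but the labels do not say so. U87 replicate 1 correlated with U87-R replicate 3 at 0.121, and U87 replicate 3 with U87-R replicate 1 at 0.144. The main fits hold no replicate block, so their p-values for U87-R against U87 leave any such pairing out. Where the replicate block ended a call in U87-R against U87, its value is given beside it. With the block, the genes called in that comparison dropped from 133 to 68 on all bases, from 116 to 55 on internal bases and from 52 to 0 on start bases.

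The 31 genes, the roles, the 122 other repair genes and the marker list were chosen with earlier results of these data known. Each of the 31 genes is described by its role. Values in every library are given for genes called in either comparison, for the gene with the highest mean sum in a role and for genes listed at 0 in a whole group, and some others are given as well. Other repair genes named are up to 3 per direction with the largest change among those called without group overlap, and MGMT, but 1 in each direction is not reported here. Single bases named are up to 5 per direction and the strongest untreated U87-R base of each called gene. That of CHEK2 is not given because all of its bases were at 0 in untreated U87-R.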

Additional observations from a re-analysis of the deposited data

How the results depend on the processing

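Alternatives were a pseudocount of 10, no filter, a sum of at least 50, centring each library on its median, scaling to the same total, only scores of at least 10, the number of called bases, leaving out bases in 2 genes, a replicate block, no trend, only the 2 groups compared, a distance of 100 nt, each library left out in turn, and, chosen after seeing the data, the 5′ end of the gene span alone. Whole-gene calls among the 31 genes in U87-R against U87 (1) became 0 with the number of called bases, 2 with no trend and 0 with only the 2 groups compared, and ranged from 0 to 1 with a library left out. With STM2457, the 11 whole-gene calls ranged from 6 to 12 with a library left out and stayed within 1.5 times of 11 under every other alternative. Internal calls in U87-R against U87 stayed at 0 in all that were run. The 15 internal calls with STM2457 became 6 when centred and ranged from 10 to 15 with a library left out. The start call in U87-R against U87 (1) became 0 with a pseudocount of 10, when centred, with scores of at least 10, with the replicate block and with only the 2 groups compared, and ranged from 0 to 1 with a library left out. The 2 start calls with STM2457 became 4 with a pseudocount of 10, 1 with no filter, 0 with a sum of at least 50, 1 when centred, 8 when scaled, 1 with scores of at least 10, 0 with the number of called bases, 1 with the replicate block (ATR gained, NBN and XRCC1 lost), 1 with no trend and 0 with only the 2 groups compared, and ranged from 0 to 4 with a library left out. Single-base calls in U87-R against U87 (0) became 6 over bases called in all libraries of a group and ranged from 0 to 11 with a library left out, and those with STM2457 (91) ranged from 46 to 100.

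Of the called differences with STM2457, those that changed sign were PARP1 (-0.10) and PRKDC (0.092) with the number of called bases, and the internal sums of H2AX (0.11), MDC1 (0.24), MSH6 (0.33) and PMS2 (0.015) when centred. The cause was not tested. With the replicate block, the STM2457 calls of PARP1 (adjusted p = 0.107) and XRCC1 (0.0606) on all bases, MDC1 (0.101) and NBN (0.0748) on internal bases, and NBN (0.0601) and XRCC1 (0.112) on start bases were lost, and the block ended no other call of a gene named here beside that of FANCD2 on start bases (0.221). A setting with 1 treated library assumes that it varies like the other groups. The number of treated libraries, 2, and the lack of read counts limit the precision of every value.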
